A study of Mus musculus with 12 samples.

Results

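The genes described here are 10 core components of the NF-kB pathway in hippocampal astrocytes of male mice: the subunits Rela, Nfkb1, Rel, Nfkb2 and Relb, the kinases Chuk, Ikbkb and Map3k14, and the feedback inhibitors Nfkbia and Tnfaip3. They were chosen by name from a table that holds 56791 gene names after summing repeated symbols, and all 10 were found in it. NF-kB is a family of dimeric transcription factors that inhibitor proteins such as IκBα (Nfkbia) hold in the cytoplasm. In the canonical route, a receptor such as the TNF receptor activates the IKK kinase complex, which marks the inhibitor for degradation and frees dimers of RelA and p50. In the non-canonical route, to which TNFR2 can signal, the kinase NIK (Map3k14) and IKKα (Chuk) drive processing of p100 (Nfkb2) and free RelB dimers. In astrocytes the pathway is best known for inducing cytokines, chemokines and reactive genes.

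Messenger RNA was measured by sequencing in 12 libraries of astrocytes that were sorted by flow cytometry with an antibody to the surface antigen ACSA-2 from the hippocampus of naive adult male mice. The group labelled Ctrl was Tnfrsf1b fl/fl (A1, A2 and A8), and the group labelled cKO was GfapcreERT2:Tnfrsf1b fl/fl (A4, A9 and A10). Both groups carry the floxed gene for TNFR2, and the Ctrl group lacks the recombinase, which the Gfap promoter drives and tamoxifen activates. The ages, the tamoxifen schedule and any pooling of animals were not given in the sources used here. Each A number has an S1 and an S2 library, which were averaged into 1 unit, so n is 3 units per genotype. Values are FPKM, reads per kilobase of gene length scaled to the total of each library, and 1 FPKM stands for a different number of reads in each gene. Depth recovered from the values was 17311872 to 35323322 reads per library. The labels do not say that A numbers are separate animals, and p-values measure the spread between these units only.

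Tnfrsf1b, the ablated gene, was read first because it checks the labels (chromosome 4, start 144940033, end 144973440). It was listed at 0 in 9 of the 12 libraries, with 4 reads in 1 Ctrl library (A1) and with 10 and 22 reads in the libraries of A4, which are labelled cKO. The gene was thus at or near 0 in both genotypes, which leaves the labels unchecked, and the reads in A4 go against its label. Gene-level values do not show whether those reads come from the deleted part, and the microglial score given below, for cells that express this receptor, was highest in A4; its part was not tested. Results below are given for units labelled cKO and, where they rest on A4, without it. The unit A8 stood apart from the other Ctrl units for several members, as described below. Its libraries listed 21342 and 21572 genes above 0, the fewest of all, where the other libraries listed 23669 to 26668. Their depths of 19598877 and 31499016 reads lay within the range given above. Whether this bears on the levels in A8 was not tested. Astrocyte markers were abundant in every unit: the mean log2(FPKM + 1) over 10 astrocyte genes, none of them below 1 FPKM, was 7.78 to 8.09 in Ctrl and 8.11 to 8.27 in units labelled cKO.

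Several members are themselves induced by NF-kB, and their promoters carry its recognition motif, so the promoters of these feedback genes are shown first. RefSeq windows of 300 bases (250 before and 50 after a gene start, GRCm38.p6) were on hand for 7 of the 10 members and were searched on both strands for the κB consensus, a motif of 10 bases, with overlapping matches merged. The motif was found for 4 of these 7 members, Nfkbia, Nfkb2, Rel and Tnfaip3, and not in the windows of Rela, Chuk and Map3k14. It occurs in 8.46% of all 32851 such windows and in 9.55% of the 27025 genes that have one. A match describes the letters of the window and is not evidence of binding. The 150 bases before the start are printed 5′ to 3′ on the strand of the gene, with the κB matches in capitals: Nfkbia at chr12:55492648-55492797 (minus strand), Nfkb2 at chr19:46304587-46304736 (plus strand), Rel at chr11:23770970-23771119 (minus strand) and Tnfaip3 at chr10:19015411-19015560 (minus strand).
Nfkbia: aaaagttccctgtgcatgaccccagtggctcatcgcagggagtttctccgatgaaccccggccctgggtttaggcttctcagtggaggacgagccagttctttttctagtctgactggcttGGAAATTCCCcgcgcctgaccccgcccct
Nfkb2: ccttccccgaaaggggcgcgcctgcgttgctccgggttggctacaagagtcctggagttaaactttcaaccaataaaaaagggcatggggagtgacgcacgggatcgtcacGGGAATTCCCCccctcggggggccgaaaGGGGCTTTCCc
Rel: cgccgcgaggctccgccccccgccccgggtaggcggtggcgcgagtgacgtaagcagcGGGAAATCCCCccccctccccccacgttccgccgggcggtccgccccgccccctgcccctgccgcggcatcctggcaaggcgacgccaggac
Tnfaip3: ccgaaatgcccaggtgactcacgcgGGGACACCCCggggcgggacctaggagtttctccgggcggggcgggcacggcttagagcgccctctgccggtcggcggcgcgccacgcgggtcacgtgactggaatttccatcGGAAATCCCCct
The match of Nfkbia begins 29 bases before its start, those of Nfkb2 39 and 11 bases before, that of Rel 92 bases before and those of Tnfaip3 125 and 12 bases before. Of the other windows, 2 of Nfkb2 also held a match, and the second window of Tnfaip3 held none.

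All 10 members were detected, over a wide range of levels. In Ctrl the order by mean FPKM was Nfkbia (30.9), Chuk (14.6), Rela (7.95), Nfkb1 (3.91), Ikbkb (3.4), Nfkb2 (2.45), Map3k14 (1.83), Rel (1.37), Relb (1.09) and Tnfaip3 (0.768). FPKM corrects for gene length, but the table uses the union of all annotated exons, which is 19078 bases for Ikbkb and 1610 bases for Nfkbia, so genes with long rarely used exons read low. The first 4 genes kept their order in all 3 Ctrl units without overlap of their ranges (Nfkbia above Chuk, Chuk above Rela, Rela above Nfkb1), and in all 6 units. From Nfkb1 downwards the Ctrl ranges of neighbours overlapped, and Rel exceeded Relb in 1 of 3 Ctrl units and 3 of 6 units. By FPKM the most abundant member was thus an inhibitor, the next a kinase, and the activating subunit Rela came above its partner Nfkb1. The order of Rela and Nfkb1 rests on the lengths used, 3072 and 12061 bases. Nfkb1 had more reads than Rela in every library, with 619 to 1858 reads against 286 to 1049.

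**Figure D1:**
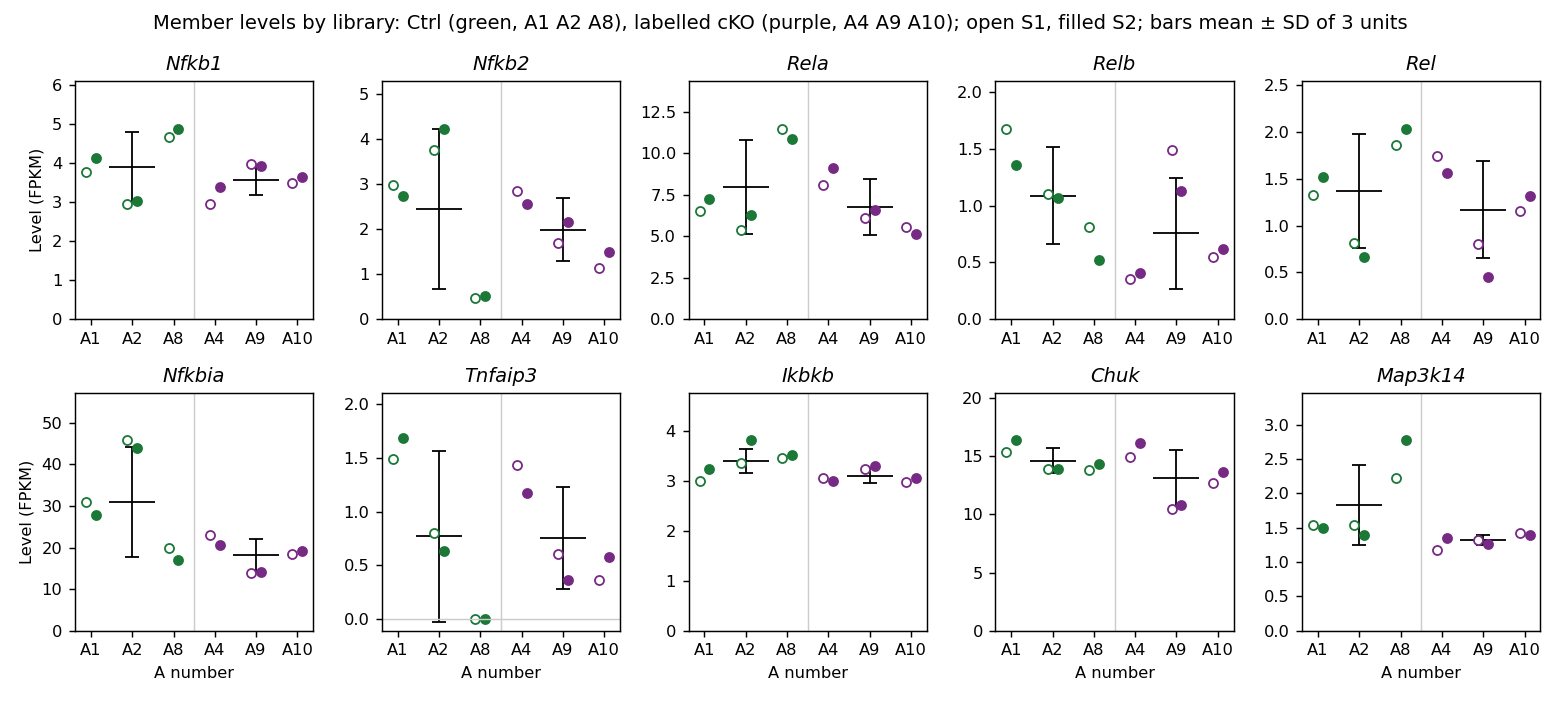
Level of each member in FPKM (y axis) in the S1 (open points) and S2 (filled points) library of each A number (x axis), with the mean and SD of 3 units per genotype as black bars. Nfkbia was highest in A2 and A1, A8 was highest for Rela, Nfkb1, Rel and Map3k14 and lowest for Nfkb2 and Tnfaip3, and Ikbkb was nearly level.

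Among the feedback inhibitors, Nfkbia encodes IκBα, which binds NF-kB dimers and returns them to the cytoplasm (ENSMUSG00000021025, chromosome 12, start 55536195, end 55539432). Its level was 29.4 FPKM in A1, 44.9 FPKM in A2 and 18.5 FPKM in A8, against 21.8 FPKM in A4, 14.0 FPKM in A9 and 18.7 FPKM in A10. A1 and A2 lay above the other 4 units, while the third Ctrl unit, A8, lay inside the range labelled cKO. The means were 30.9 ± 13.2 FPKM in Ctrl and 18.2 ± 3.94 FPKM in units labelled cKO (SD, n = 3 each, exact permutation p = 0.3, two-sided). The log2 fold change was -0.67 (SE 0.32, adjusted p = 0.710 by limma), the furthest from 0 of the 8 tested members, and it did not pass the threshold of 0.05. It was -0.80 without A4 (adjusted p = 0.971 by limma), -0.98 without A8 (adjusted p = 0.214 by limma) and -0.36 without A2 (adjusted p = 0.859 by limma).

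Tnfaip3 encodes A20, a ubiquitin-editing enzyme that shuts off signalling upstream of IKK (ENSMUSG00000019850, chromosome 10, start 18876658, end 18891405). Its level was 1.59 FPKM in A1, 0.715 FPKM in A2 and 0 in A8, against 1.31 FPKM in A4, 0.483 FPKM in A9 and 0.469 FPKM in A10. Both A8 libraries had 0 reads, where the other 10 libraries had 47 to 380. A8 was also the unit with the fewest genes above 0, as given above. A count of 0 allows up to 3 reads, or 0.0172 FPKM as the mean of the A8 libraries, so A1 was at least 92.5-fold and A10, the next lowest unit, at least 27.3-fold above A8 (counting error only). The means were 0.768 ± 0.796 FPKM in Ctrl and 0.752 ± 0.479 FPKM in units labelled cKO (SD, n = 3 each, exact permutation p = 1, two-sided). The largest contrast of this gene was therefore between units of 1 genotype. With a mean of 0.760 FPKM it was below the filter for the test across genes. The difference of means on the log2(FPKM + 1) scale was 0.06, and it was -0.16 without A4 and -0.30 without A8.

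Of the canonical subunits, Rela encodes RelA (p65), which carries the transactivation domain of the main dimer (ENSMUSG00000024927, chromosome 19, start 5687511, end 5698158). Its level was 6.88 FPKM in A1, 5.83 FPKM in A2 and 11.2 FPKM in A8, against 8.59 FPKM in A4, 6.32 FPKM in A9 and 5.34 FPKM in A10. A8 was the highest unit, and the genotypes overlapped (log2 fold change -0.18, SE 0.27, adjusted p = 0.937 by limma). Nfkb1 encodes p105, the precursor of p50 (ENSMUSG00000028163, chromosome 3, start 135290416, end 135397308). It was at 3.96 FPKM in A1, 3.0 FPKM in A2 and 4.78 FPKM in A8, and at 3.18 FPKM in A4, 3.96 FPKM in A9 and 3.58 FPKM in A10 (log2 fold change -0.09, SE 0.20, adjusted p = 0.967 by limma). Rel encodes c-Rel, a subunit best known from lymphocytes (ENSMUSG00000020275, chromosome 11, start 23686847, end 23720970). It was at 1.42 FPKM in A1, 0.740 FPKM in A2 and 1.95 FPKM in A8, and at 1.66 FPKM in A4, 0.622 FPKM in A9 and 1.23 FPKM in A10 (log2 fold change -0.13, SE 0.37, adjusted p = 0.975 by limma). A8 was thus the highest unit for all 3 canonical subunits, and without A8 each of these log2 fold changes turned positive, to 0.06 for Rela, 0.03 for Nfkb1 and 0.05 for Rel. Rel also turned without A9, to 0.07. Without A4 the log2 fold changes were -0.35 for Rela, -0.03 for Nfkb1 and -0.29 for Rel. Without A2 they were -0.36, -0.23 and -0.33 in the same order.

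The non-canonical branch consists of the precursor p100, its partner RelB and the kinase NIK. Nfkb2, which encodes p100 (ENSMUSG00000025225, chromosome 19, start 46292759, end 46300824), was at 2.86 FPKM in A1, 4.0 FPKM in A2 and 0.493 FPKM in A8, against 2.71 FPKM in A4, 1.94 FPKM in A9 and 1.31 FPKM in A10. The highest unit was 8.12-fold above the lowest, the widest ratio among the 9 members above 0 in every unit, and both extremes were Ctrl. The means were 2.45 ± 1.79 FPKM in Ctrl and 1.99 ± 0.700 FPKM in units labelled cKO (SD, n = 3 each), with a log2 fold change of -0.07 (SE 0.48, adjusted p = 0.991 by limma), which was -0.59 without A8 and -0.24 without A4. It turned positive without A1 (0.10), A2 (0.29) or A10 (0.10). Exons of Nfkb2 overlap those of Psd and 4833438C02Rik on the other strand, and in 3 libraries its reads were not whole. The kit does not mark strand, so reads from these neighbours cannot be told apart. Reads that are not whole do not by themselves mark such overlap, since Rela, whose exons overlap no other gene, was whole in 10 of 12 libraries.

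Relb, which encodes RelB (ENSMUSG00000002983, chromosome 7, start 19340142, end 19363363), was at 1.52 FPKM in A1, 1.08 FPKM in A2 and 0.669 FPKM in A8, against 0.379 FPKM in A4, 1.31 FPKM in A9 and 0.582 FPKM in A10. Its mean of 0.923 FPKM lay just below the filter, and the difference on the log2 scale was -0.26 (exact permutation p = 0.4, two-sided, n = 3 each), or -0.11 without A4. Map3k14, which encodes NIK (ENSMUSG00000020941, chromosome 11, start 103110588, end 103158298), was the member whose units did not overlap between genotypes. It was at 1.51 FPKM in A1, 1.47 FPKM in A2 and 2.5 FPKM in A8, against 1.27 FPKM in A4, 1.29 FPKM in A9 and 1.40 FPKM in A10. All 3 units labelled cKO were below all 3 Ctrl units, by a margin of 1.40 to 1.47 FPKM between the nearest. Single libraries did overlap: S2 of A2 (Ctrl) was at 1.397 FPKM and S1 of A10 (labelled cKO) at 1.418 FPKM. The S1 library of A2 was at 1.539 FPKM, so the margin was smaller than the difference between the libraries of A2. The means were 1.83 ± 0.582 FPKM and 1.32 ± 0.073 FPKM, with SD over 3 units each (two-sided exact permutation p = 0.1, which is as low as 3 against 3 units can go). The log2 fold change was -0.26 (SE 0.28, adjusted p = 0.900 by limma), and -0.10 without A8. An exon of Map3k14 overlaps 1700028N14Rik on the same strand, which can share reads with it.

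The IKK kinases varied least. Ikbkb encodes IKKβ, the kinase that phosphorylates IκBα in the canonical route (ENSMUSG00000031537, chromosome 8, start 23149228, end 23196605). Its level was 3.12 FPKM in A1, 3.58 FPKM in A2 and 3.48 FPKM in A8, against 3.03 FPKM in A4, 3.27 FPKM in A9 and 3.02 FPKM in A10, a ratio of 1.19 between the highest and the lowest unit. Chuk encodes IKKα, which serves both routes (ENSMUSG00000025199, chromosome 19, start 44061774, end 44095919). It was at 15.8 FPKM in A1, 13.9 FPKM in A2 and 14.1 FPKM in A8, against 15.5 FPKM in A4, 10.6 FPKM in A9 and 13.2 FPKM in A10, a ratio of 1.49. Neither differed between genotypes beyond the spread (log2 fold changes -0.10, SE 0.17, adjusted p = 0.956 by limma for Ikbkb, and -0.16, SE 0.16, adjusted p = 0.900 by limma for Chuk), and in both genes 2 of the 3 units labelled cKO lay below every Ctrl unit. The log2 fold change of Chuk was -0.03 without A9 and -0.28 without A4.

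**Figure D2:**
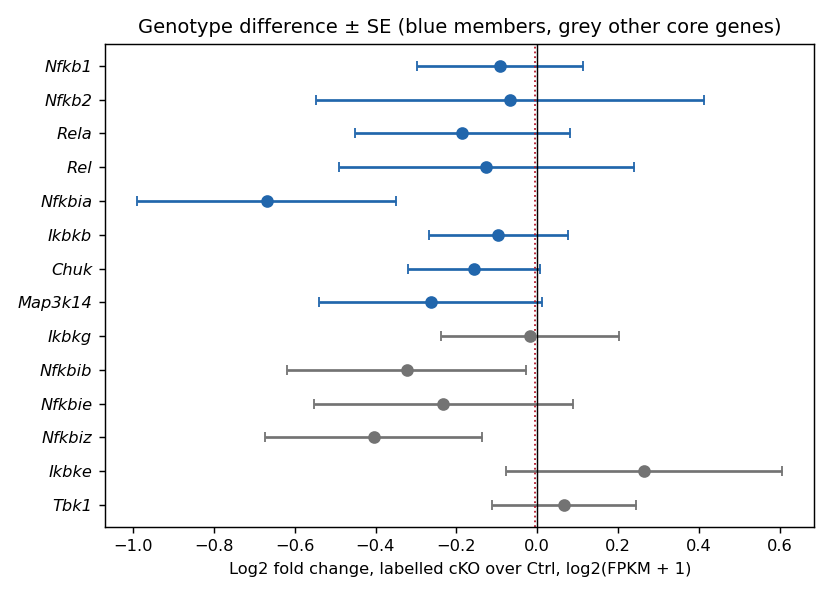
Log2 fold change of units labelled cKO over Ctrl on the log2(FPKM + 1) scale (x axis) with its SE for the 8 tested members (blue) and the 6 tested other core genes (grey), the dotted line being the median of all genes tested. Nfkbia lay furthest from 0 at -0.67, and none passed the threshold.

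The comparison between genotypes asks whether ablation of astroglial TNFR2 goes with another level of the pathway's own components. Of 8 tested members, 0 had a limma adjusted p under 0.05 and 0 an unadjusted p under 0.05; over all 17540 genes tested the shares were 0% and 7.69% (1349 genes), and limma voom on recovered reads also called 0 genes. The 3 units of one genotype lay wholly on one side of the other 3 in 1 of 8 members, Map3k14, beside 13.0% of all genes tested, so that count was near the background. The log2 fold change was below 0 in 8 of 8 members, beside 50.8% of all genes tested. Their median was -0.14, where that of all genes was -0.01; it was -0.26 without A4, -0.28 without A2 and -0.09 without A8. The standard errors exceeded the change in 7 of the 8, Nfkbia being the other. These 8 directions share the same 6 units and are not separate evidence, and 3 of them turned without A8.

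Ratios of members within a unit do not depend on how a library was scaled. The level of Nfkbia over that of Rela was 4.28 in A1, 7.70 in A2 and 1.66 in A8, against 2.54 in A4, 2.21 in A9 and 3.51 in A10. Nfkb2 over Nfkb1 was 0.722 in A1, 1.34 in A2 and 0.103 in A8, against 0.852 in A4, 0.489 in A9 and 0.367 in A10. Relb over Rela was 0.220 in A1, 0.186 in A2 and 0.0599 in A8, against 0.0442 in A4, 0.207 in A9 and 0.109 in A10. In A8 Nfkbia relative to Rela and Nfkb2 relative to Nfkb1 were at their lowest, and the 3 units labelled cKO lay within the Ctrl range for these first 2 ratios. On the log2 scale the differences were -0.49, 0.21 and -0.43, with exact permutation p of 0.6, 0.9 and 0.6 (two-sided, n = 3 each) and 0.9 for each of the 3 ratios after Benjamini-Hochberg adjustment. Without A4 the differences were -0.44, -0.13 and 0.16. The first was 0.02 without A2 and -1.09 without A8. The second was 0.97 without A2 and -0.88 without A8. The third was -1.02 without A8 and -0.96 without A9.

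**Figure D3:**
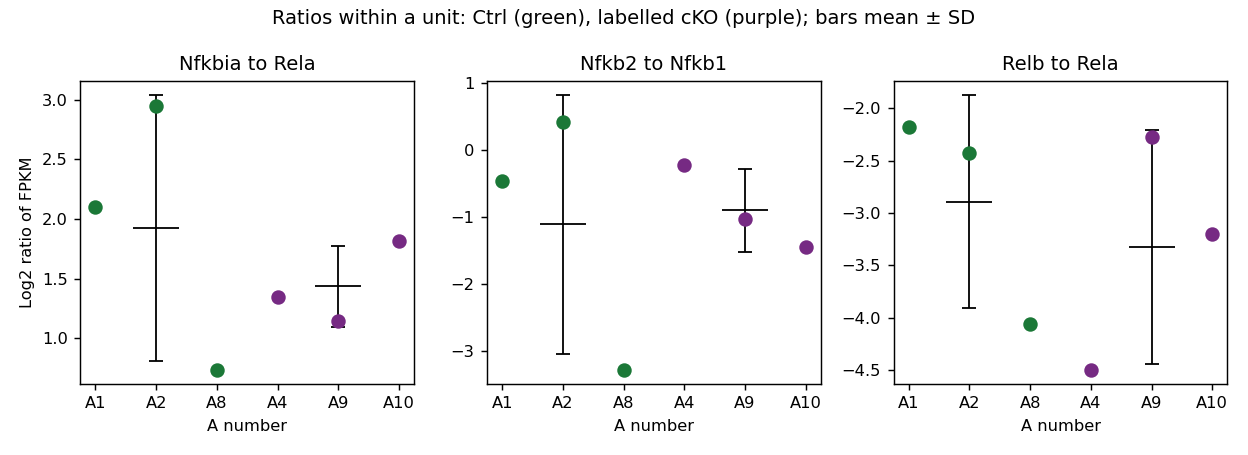
Log2 ratio of FPKM (y axis) of Nfkbia to Rela, Nfkb2 to Nfkb1 and Relb to Rela in each unit (points), with the mean and SD of 3 units per genotype (bars). A8 was lowest in the first 2 ratios, at 0.73 and -3.28, and A4 was lowest in the third at -4.50.

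The other core genes of the pathway were read from a list of 8, of which 6 passed the filter. Of the 6, 0 had an adjusted or unadjusted p under 0.05, beside 0% and 7.69% of all genes tested. In 4 the log2 fold change was below 0, beside 50.8% of all genes tested, and the median was -0.12. That median was -0.16 without A4, -0.04 without A9, -0.22 with a pseudocount of 0.1 and -0.23 with voom. It was 0.24 with the oligodendrocyte score described below as a covariate, so its sign depended on that covariate. Among the inhibitors, Nfkbiz, an inducible nuclear IκB protein, was at 9.22 ± 2.02 FPKM in Ctrl and 6.85 ± 2.16 FPKM in units labelled cKO (log2 fold change -0.40, adjusted p = 0.828 by limma). The log2 fold change of Nfkbiz was -0.15 without A9 and 0.19 with that covariate. Nfkbib, which encodes IκBβ, was at 3.96 ± 1.20 and 3.01 ± 1.26 FPKM, and Nfkbie, which encodes IκBε, at 1.57 ± 0.220 and 1.23 ± 0.564 FPKM (SD, n = 3 each). Ikbkg, the regulatory subunit NEMO of the IKK complex, was nearly the same in both, at 4.18 ± 0.761 and 4.15 ± 0.975 FPKM. The IKK-related kinases were at 6.93 ± 0.723 and 7.36 ± 1.40 FPKM (Tbk1) and at 0.954 ± 0.324 and 1.36 ± 0.472 FPKM (Ikbke). Nfkbid and Bcl3, nuclear IκB proteins, stayed below 1 FPKM in every unit, and Bcl3 had more than 3 reads in 2 of 12 libraries. In the RefSeq windows, Nfkbie, Nfkbid and Bcl3 held the κB motif, and Ikbkg, Nfkbib, Ikbke and Tbk1 did not.

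Upstream adaptors, ubiquitin ligases and deubiquitinases were read from a list of 30 genes, of which 25 were tested. An unadjusted p under 0.05 was found in 1 of them and an adjusted one in 0, beside 7.69% and 0% of all genes tested. In 16 of the 25 the log2 fold change was below 0, beside 50.8% of all genes tested, and the median was -0.04. The gene with the smallest p was Otud7b, a deubiquitinase related to A20, at 12.3 ± 2.79 FPKM in Ctrl and 6.11 ± 1.97 FPKM in units labelled cKO (SD, n = 3 each; log2 fold change -0.92, SE 0.25, adjusted p = 0.426 by limma). Adding the oligodendrocyte score to the model gave Otud7b a log2 fold change of -0.02 (adjusted p = 0.993 by limma). That score did not overlap between the genotypes, so this fit cannot separate it from genotype. The 3 units labelled cKO, at 4.64 to 8.35 FPKM of Otud7b, lay below the 3 Ctrl units, at 9.20 to 14.5 FPKM. Without A4 the log2 fold change of Otud7b was -0.85. Tnip1, which encodes a partner of A20, was at 4.48 ± 1.17 and 3.34 ± 0.295 FPKM, and Birc3, a ubiquitin ligase of the receptor complex, at 1.35 ± 0.244 and 0.743 ± 0.412 FPKM. These genes and Btrc, which was named after its values were seen, made up the 4 of 25 whose units did not overlap, beside the 13.0% of all genes given above. The most abundant genes of the list were level: Fbxw11, part of the ligase that marks IκBα, was at 23.4 ± 0.10 and 23.5 ± 4.05 FPKM, and Tab2, an adaptor of the kinase TAK1, at 20.7 ± 2.76 and 20.6 ± 2.76 FPKM (SD, n = 3 each).

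Of 24 target genes that NF-kB is known to induce, 12 passed the filter, and the 12 others included Tnf, Il6, Il1b, Ccl2, Ccl5, Cxcl2, Icam1, Lcn2 and Nos2. Among the 12 tested, 0 had an adjusted p under 0.05 and 1 an unadjusted p under 0.05, beside 0% and 7.69% of all genes tested. A log2 fold change below 0 was found in 8 of the 12, beside 50.8% of all genes tested, and the median was -0.30. That median was -0.27 without A4, -0.07 without A1, -0.10 without A2, -0.11 without A9, -0.54 without A8 and -0.49 without A10. With the oligodendrocyte score described below as a covariate it was 0.40. Csf1, a growth factor of microglia, was at 16.0 ± 1.20 FPKM in Ctrl and 11.9 ± 1.07 FPKM in units labelled cKO, with no overlap of units (SD, n = 3 each; log2 fold change -0.41, SE 0.13, adjusted p = 0.516 by limma). Without A4 the log2 fold change of Csf1 was -0.34. Csf1 was the 1 of 12 tested targets without overlap, beside 13.0% of all genes tested. The 12 targets below the filter are not in this count. Bcl2l1, which encodes the survival protein Bcl-xL, was at 10.9 ± 2.93 and 6.94 ± 3.06 FPKM, with overlap. Vcam1, an adhesion molecule, was at 22.7 ± 3.61 and 28.8 ± 4.14 FPKM, and Sdc4, a proteoglycan and the most abundant of the list, at 128 ± 28.3 and 144 ± 12.3 FPKM. The tested targets thus did not share 1 direction, and Lcn2, a marker of reactive astrocytes, had no more than 3 reads in any library.

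Levels in sorted bulk samples reflect both which cells were present and what each contained, and fewer cells of a type cannot be told apart from less RNA per cell. Marker lists gave these values beside the members. The immediate-early list, whose genes respond to activity and to tissue dissociation, scored 5.61 in A1, 5.62 in A2 and 3.66 in A8, and 4.55 in A4, 3.47 in A9 and 4.37 in A10 (mean log2(FPKM + 1) of 16 genes, all with a mean of at least 1 FPKM). The 6 units stood in the same order by this score as by the level of Nfkbia: A2, A1, A4, A10, A8 and A9. The endothelial list of 5 genes, none of them at 0 throughout, scored 3.14 in A1, 2.57 in A2 and 0.685 in A8, and 2.66 in A4, 0.891 in A9 and 0.787 in A10. The 6 units stood in the same order by this score as by the level of Tnfaip3: A1, A4, A2, A9, A10 and A8. In the S2 libraries Tnfaip3 was higher in A10 (0.575 FPKM) than in A9 (0.363 FPKM). The 2 matches of order came from 100 pairings of 10 members with 10 lists and were noticed after the values were seen. The part of either cell state or cell type in the members' levels was not tested.

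**Figure D4:**
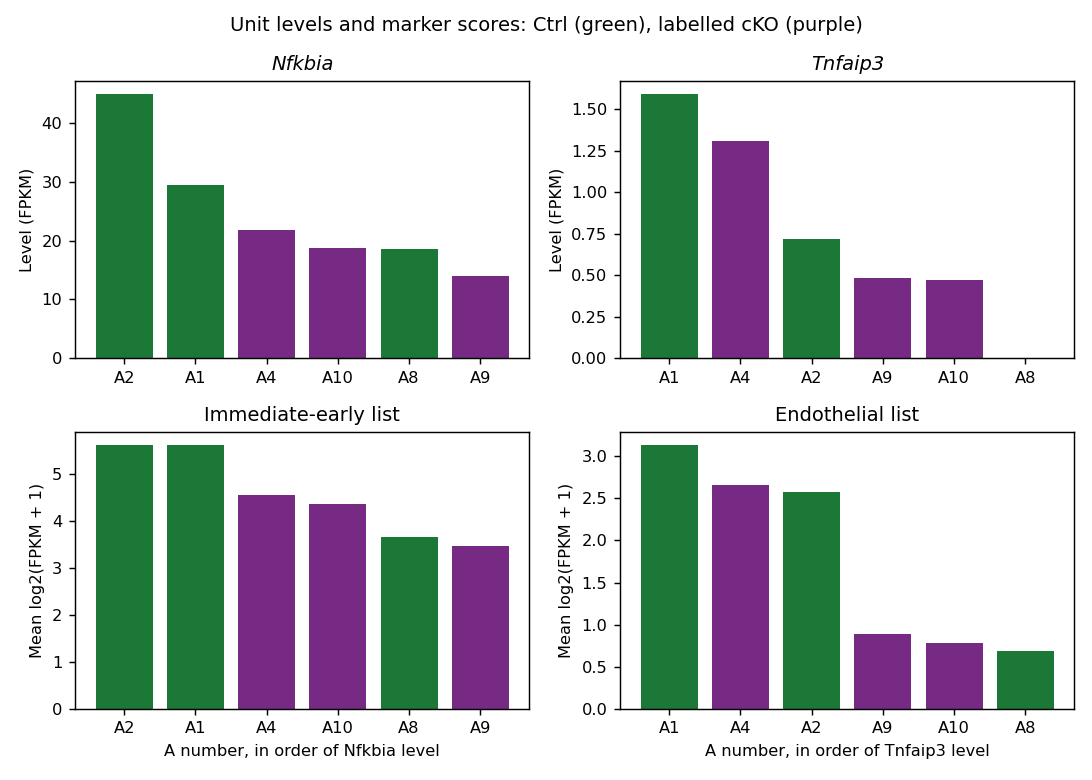
Level in FPKM (upper bars) of Nfkbia and Tnfaip3 in each unit, above the mean log2(FPKM + 1) of the immediate-early and endothelial lists (lower bars), with units sorted by the gene above. The scores decline in the same order as the genes, with Nfkbia nearly level in A10 and A8, and Tnfaip3 was at 0 in A8.

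The astrocyte, oligodendrocyte, microglial and neuronal scores differed between the genotypes with no overlap of units. All 10 astrocyte genes were at a higher mean in units labelled cKO, with the scores given above (exact permutation p = 0.1, two-sided, n = 3 each). All 10 oligodendrocyte genes were at a lower mean in units labelled cKO, with scores of 5.66 to 6.80 in Ctrl and 4.03 to 5.33 in units labelled cKO (exact permutation p = 0.1, two-sided, n = 3 each), and none of the 10 was at 0 throughout. With that score as a covariate the log2 fold changes of Nfkbia and Nfkb2 turned positive, to 0.03 and 0.67. Those of the subunits Rela, Rel and Nfkb1 moved the other way, to -1.16, -0.63 and -0.34, and that of Map3k14 to -0.57, while Chuk was at -0.20 and Ikbkb at -0.14. The members' median was then -0.27, and their adjusted p by limma ranged from 0.793 (Rela) to 0.994 (Nfkbia). Since the score did not overlap between the genotypes, this fit cannot separate it from genotype, and these values are not corrected effects. The part of oligodendrocyte RNA in these values was not tested. Microglial genes, of which 5 of 8 were below 1 FPKM on average (Cx3cr1, Tmem119, Csf1r, Aif1 and C1qa), scored 0.812 to 1.0 in Ctrl and 1.04 to 1.79 in units labelled cKO, highest in A4 (exact permutation p = 0.1). Neuronal genes scored 0.870 to 1.10 and 0.496 to 0.862, with Rbfox3, Syt1, Slc17a7 and Gad1 below 1 FPKM (exact permutation p = 0.1). Precursor genes scored 2.39 to 3.35 in Ctrl and 1.99 to 2.59, ependymal genes 3.70 to 5.69 and 3.51 to 5.11, mural genes 3.34 to 4.05 and 3.78 to 4.45, and perivascular macrophage genes, with Lyve1 at 0 in every library, 0.0843 to 0.301 and 0.0081 to 0.179, all with overlap of units. The part of these cells in the members' values was not tested.

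The spread between units of 1 genotype differed widely among the members. On the log2(FPKM + 1) scale the SD was 0.69 for Nfkb2, 0.49 for Nfkbia, 0.37 for Rel and 0.37 for Rela, above the median of 0.32 over all genes tested. It was 0.21 for Nfkb1, 0.20 for Map3k14, 0.19 for Chuk and 0.07 for Ikbkb. Ikbkb stood at percentile 1.15 of all genes tested, and Nfkb2 at percentile 82.1. Of the 3 tested members with a κB match in their window, Nfkb2 and Nfkbia had the 2 largest SDs of the 8, while Rel had the same SD to 2 decimals as Rela, whose window held none. The highest unit was 8.12-fold above the lowest for Nfkb2, 3.21-fold for Nfkbia and 3.13-fold for Rel. The ratio was 2.09 for Rela, 1.97 for Map3k14 and 1.49 for Chuk, whose windows held no match. Among the members without a window, it was 3.997 for Relb, above Nfkbia and Rel, 1.597 for Nfkb1 and 1.19 for Ikbkb. The larger SDs of Nfkb2 and Nfkbia were noticed after the values were seen. They describe few genes at unequal depth, since Nfkb2 had 42.5 to 545 reads per library and Chuk 928 to 2900. The S2 library gave 0.90 to 1.30 times the Nfkb2 level of the S1 library of the same A number, a narrower range than that between units. For Rel and Relb the libraries of one A number differed more, at 0.56 to 1.14 and 0.64 to 1.16 times. The lowest unit of Rel, A9, was the mean of 0.798 FPKM (S1) and 0.446 FPKM (S2).

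**Figure D5:**
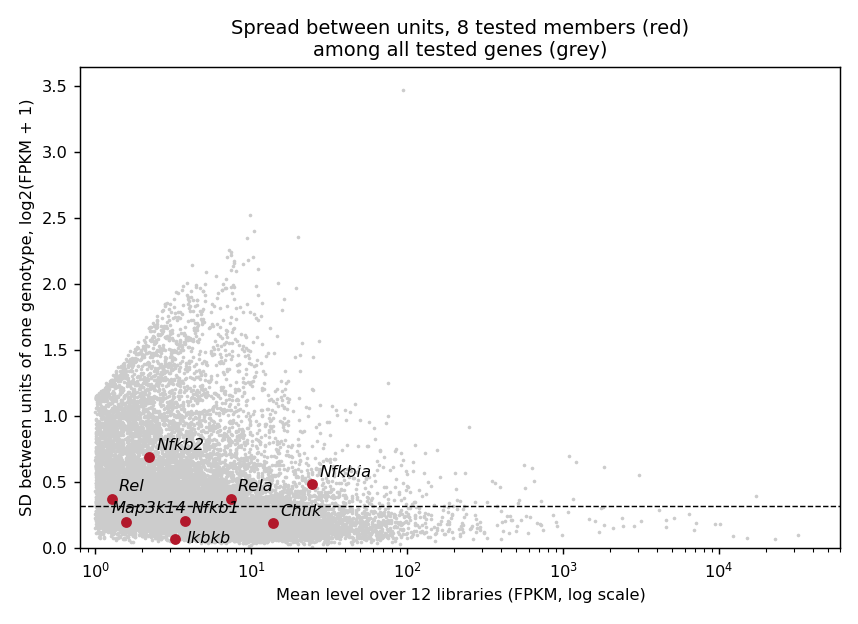
SD between units of one genotype on the log2(FPKM + 1) scale (y axis) against the mean level in FPKM (x axis, log scale) for the 8 tested members (red) and all 17540 genes tested (grey), with the median SD as a dashed line. Nfkb2, Nfkbia, Rel and Rela lay above the line at 0.32, and Ikbkb lay lowest of the members at 0.07.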

How the data were processed

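The deposited table gives FPKM values for 56941 genes in 12 libraries, scaled by the authors so that FPKM times length in kilobases sums to 1000000 in each library. FastQC, STAR, featureCounts and DESeq2 and the builds mm10 and GRCm38 are named per the submitters' processing notes, with no role or version. Gene coordinates are as deposited; only 2.87% of the 52000 identifiers shared with GENCODE M21 (GRCm38) match its positions, and the build is not known; promoter windows are on GRCm38.p6. The length column, a deposited value in bases, was used to recover depth from the steps between low values. Of the low values above 0, 84.5% to 88.6% per library came out whole within 0.01 of a read, with a pair taken as 2 reads. Floors of 3 reads cover counting error only, since the reads carry no molecular identifiers.

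The 2 libraries of each A number were averaged, their correlation across genes being 0.980 to 0.984 (libraries of different A numbers: 0.788 to 0.896). Genes with a mean of at least 1 FPKM were tested on log2(FPKM + 1), which understates changes of low genes, with limma 3.58.1 in R 4.3.3 (variance trend, two-sided, Benjamini-Hochberg over all 17540 genes, threshold 0.05). Single values used exact permutation over 20 arrangements in Python 3.11.15. The fit was checked on simulated data. Members, lists and tests were chosen with earlier results of these data known. All members are named, with the 8 core genes and, from the upstream and target lists, the 3 smallest p and the 2 most abundant; Ier3 is in both the target and the immediate-early list. Alternatives were other pseudocounts, filters, scalings, fits, single S numbers, each A number left out, and the oligodendrocyte score as a covariate.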

Additional observations from a re-analysis of the deposited data

How the results depend on the processing

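Across the alternatives run for the 8 tested members, 0 of 139 values had a limma adjusted p under 0.05 (range 0.214 to 1), and 11 changed direction. The count of changed genes was 0 in the main test and 0 to 1 when each A number was left out (1 without A1). With the 12 libraries and the A number as a random effect it was 112, and with the replicate block added 80, with no member among them; a shared replicate number (S1 or S2) does not link a Ctrl unit to one labelled cKO. Both of these fits take libraries rather than units as observations, with a single consensus correlation for all genes. That correlation was 0.915, and 0.924 with the replicate block. Why these counts differ was not tested.

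Directions turned as follows (log2 values). Nfkb2 was 0.050 with a pseudocount of 0.1, 0.18 with voom and 0.67 with the oligodendrocyte covariate. With that covariate Nfkbia was 0.035, Ikbkg 0.44, Nfkbiz 0.19, Fbxw11 0.31, Bcl2l1 0.40 and Sdc4 -0.0091. The core list's median turned to 0.24 and the target list's to 0.40. The oligodendrocyte score did not overlap between the genotypes, so fits with this covariate cannot separate it from genotype. Upper quartile scaling gave 0.046 for Ikbkg, 0.070 for Fbxw11 and 0.069 for Tab2, median ratio scaling 0.0049, 0.020 and 0.020, and S2 libraries alone 0.00091 for Ikbkg and 0.017 for Fbxw11. With each A number left out, the ranges were -0.23 to 0.034 for Nfkb1, -0.59 to 0.29 for Nfkb2, -0.36 to 0.059 for Rela, -0.33 to 0.072 for Rel, -0.30 to 0.38 for Tnfaip3, -0.14 to 0.14 for Ikbkg, -0.057 to 0.18 for Tbk1, -0.14 to 0.064 for Fbxw11, -0.12 to 0.10 for Tab2 and -0.00060 to 0.32 for Sdc4. The ratios ranged from -1.09 to 0.020 (Nfkbia to Rela), -0.88 to 0.97 (Nfkb2 to Nfkb1) and -1.02 to 0.16 (Relb to Rela). Relb and Tnfaip3 were below the filter and not part of the test across genes, and reads in the other members numbered as few as 42.5 per library (Nfkb2).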
